A study of Mus musculus with 12 samples.

Results

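MHC class II molecules and a handful of surface receptors are used to tell antigen-presenting cells and monocytes apart from neutrophils. The 9 mouse genes described here were H2-Aa, H2-Ab1, H2-Eb1, Cd74 and Ciita of the MHC class II pathway, and Csf1r, Adgre1, Cx3cr1 and Ccr2, which are used as markers of monocytes and macrophages. They were chosen by name, as genes known from cells other than neutrophils, and were read from the array rows whose platform annotation carries exactly that symbol. Each of the 9 genes had 1 such transcript cluster (a set of probes that reads the transcripts of a gene), out of 28848 clusters tested, which name 19938 single genes.

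The study asked how the loss of CARD9, an adapter protein of myeloid cells, changes the gene expression of neutrophils that meet immune complexes. Bone marrow neutrophils of mice homozygous for the Card9tm1Jrld knockout allele (Card9-/-) or of wild-type C57BL/6 mice were kept for 4 h on immobilized immune complexes (IC, human serum albumin bound by its antibody) or on a control surface of human serum albumin alone. The 4 groups, Card9-/- IC, Card9-/- control, wild-type IC and wild-type control, were each run in 3 experiments at separate times, which gave 12 arrays. The neutrophils came from hypotonic lysis and a Percoll density gradient of femur and tibia marrow, and the labels give them as Ly6G+. Adherent and nonadherent cells were lysed together. Mice of both sexes were used, and how many animals stand behind an array, and their ages, are not given per array. Card9 was deleted in all cells of the mutant mice, so that every cell type of the preparation carried the mutation.

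MHC class II molecules carry peptides of extracellular origin to the surface, where CD4+ T cells read them. H2-Aa and H2-Ab1 encode the α and β chains of I-A, H2-Eb1 encodes the β chain of I-E, and Cd74 encodes the invariant chain that fills the peptide groove on the way to the endosome. Ciita encodes the transactivator that these genes need, and it is recruited to a conserved promoter module by RFX, CREB and NF-Y proteins. B cells, dendritic cells and activated macrophages use this pathway constitutively or after interferon-γ. Csf1r encodes the receptor for the growth factor of the macrophage lineage, Adgre1 encodes a surface protein by which macrophages are stained and which mouse eosinophils also carry, Cx3cr1 encodes the fractalkine receptor and Ccr2 the chemokine receptor that lets monocytes leave the bone marrow.

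The deposited values are log2 signals, normalized by the authors by a method not given in the sources used here, with array medians between 5.27 and 5.93. Card9 had log2 signals of 6.42, 6.01 and 5.56 in Card9-/- IC cells and of 6.39, 5.94 and 5.70 in Card9-/- control cells, against 8.08, 8.21 and 8.50 in wild-type IC cells and 8.42, 8.43 and 8.75 in wild-type control cells, so that all arrays matched their genotype labels. Neutrophil markers were above background on all 12 arrays in 19 of 19 clusters, with Ly6g, the gene behind the label, at 11.84 to 12.64 and S100a8 at 12.43 to 12.75. Background was read from 1030 clusters of olfactory receptor genes, whose 95th percentile lay between 4.73 and 5.64 on the 12 arrays. This was a low cut, below the median of all clusters on every array, so that most clusters passed it. Card9 passed it on the arrays of Card9-/- cells as well, so that a gene above background is not thereby shown to be expressed. An array has no sequencing depth, so that the precision rests on the number of arrays. In such bulk RNA, fewer cells of a type and less RNA per cell cannot be told apart.

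Class II promoters are known for a module of X and Y boxes on which CIITA acts, and H2-Aa and H2-Eb1 are shown because they are the class II members whose promoter sequence was at hand. RefSeq sequences (GRCm38.p6) were at hand for 4 of the 9 genes (H2-Aa, H2-Eb1, Cx3cr1 and Ccr2) and for 18 of 20 other genes of the class II pathway. In the 250 bases before the gene start, capitals mark GCAAC, the core of the X box, and CTGATTGG, the Y box. The H2-Aa window lies at chr17:34287824-34288073 on the minus strand and the H2-Eb1 window at chr17:34305617-34305866 on the plus strand. H2-Oa, which encodes a chain of a modulator of peptide loading, is given as a stretch of 58 bases at chr17:34092293-34092350 on the plus strand.
H2-Aa: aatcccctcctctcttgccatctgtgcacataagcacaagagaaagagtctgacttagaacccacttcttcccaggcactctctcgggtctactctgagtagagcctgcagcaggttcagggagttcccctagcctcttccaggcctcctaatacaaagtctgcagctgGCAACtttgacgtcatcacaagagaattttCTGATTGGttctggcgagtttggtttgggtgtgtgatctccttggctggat
H2-Eb1: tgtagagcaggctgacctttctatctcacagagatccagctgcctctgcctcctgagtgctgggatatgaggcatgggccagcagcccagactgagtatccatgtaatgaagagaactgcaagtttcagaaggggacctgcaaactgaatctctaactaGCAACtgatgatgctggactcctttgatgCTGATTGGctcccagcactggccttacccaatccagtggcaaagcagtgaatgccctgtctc
H2-Oa: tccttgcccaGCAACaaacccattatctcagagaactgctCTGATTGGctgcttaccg
Counted back from the gene start, the X core began at base −81 in H2-Aa and −91 in H2-Eb1, and the Y box at −51 in H2-Aa and −62 in H2-Eb1. Between both boxes lay 25 bases in H2-Aa and 24 in H2-Eb1. The same pair of boxes, with 15 to 40 bases between them on either strand, was also found in H2-Eb2 and H2-Oa. It was not found in the windows of H2-DMa, H2-DMb1, H2-DMb2 and H2-Ob, which encode other chains of class II loading proteins, nor in those of Cx3cr1 and Ccr2. Of 32851 promoter windows of this length, 34 (0.103%) held the pair, 3.83% held CTGATTGG, 29.9% held GCAAC and 33.8% held the shorter ATTGG contained in the Y box. GCAAC and the spacing were chosen after the sequences had been read, so that these shares describe the letters and test nothing.

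The class II genes differed far more between experiments than between genotypes or surfaces. H2-Aa had log2 signals of 8.29, 6.93 and 10.27 in experiments 1, 2 and 3 in Card9-/- IC cells, of 8.60, 6.28 and 9.74 in Card9-/- control cells, of 7.82, 7.84 and 10.61 in wild-type IC cells and of 7.82, 7.17 and 9.71 in wild-type control cells. All 4 arrays of experiment 3 were above all 8 others, and the arrays of all 4 groups overlapped. H2-Ab1, the partner chain, had 8.17, 6.40 and 9.98 in Card9-/- IC cells, 8.36, 6.28 and 8.92 in Card9-/- control cells, 7.49, 7.26 and 10.10 in wild-type IC cells and 7.65, 7.01 and 8.95 in wild-type control cells. For this gene the 3 experiments did not overlap, with experiment 3 highest and experiment 2 lowest. H2-Eb1 had 8.08, 7.25 and 9.50 in Card9-/- IC cells, 8.24, 7.04 and 8.76 in Card9-/- control cells, 7.69, 7.43 and 9.64 in wild-type IC cells and 7.83, 7.41 and 8.83 in wild-type control cells. The order of the experiments was that of H2-Ab1, again without overlap. Cd74 had 9.08, 8.21 and 10.21 in Card9-/- IC cells, 9.13, 7.74 and 9.48 in Card9-/- control cells, 8.50, 8.96 and 10.47 in wild-type IC cells and 8.61, 8.55 and 9.62 in wild-type control cells. Experiment 3 was again highest in every group, while experiments 1 and 2 overlapped.

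All 4 of these genes were above the olfactory receptor percentile on all 12 arrays. Their signals spanned 2.60 log2 units in H2-Eb1, 2.72 in Cd74, 3.81 in H2-Ab1 and 4.33 in H2-Aa. Among all clusters of an array, H2-Aa lay between percentiles 57.6 and 96.2. Ciita, the transactivator, lay between 5.004 and 5.78 and passed the background on 8 of 12 arrays. Its order of experiments was another one, with 5.72 to 5.78 in experiment 1, 5.48 to 5.60 in experiment 2 and 5.004 to 5.21 in experiment 3, and the background itself was lowest in experiment 3.

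**Figure D1:**
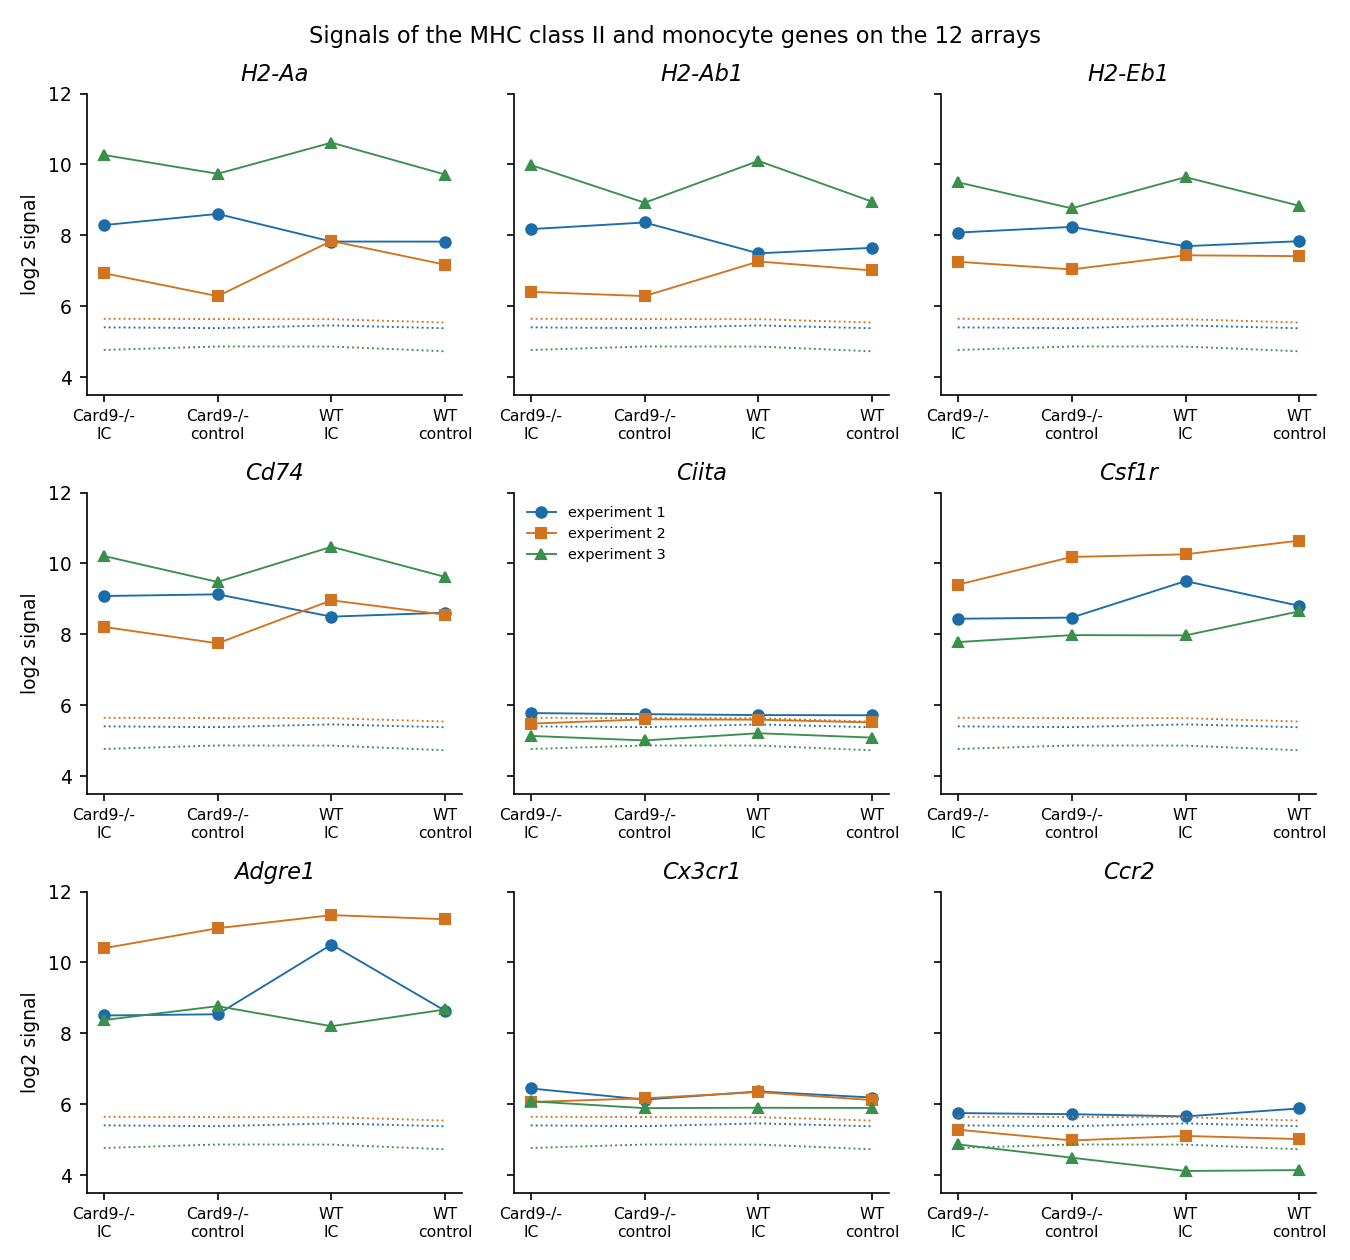
Log2 signal (vertical axis) of the 9 genes in the 4 groups, with 1 symbol per array, solid lines joining the 4 arrays of an experiment and dotted lines for the 95th percentile of the olfactory receptor clusters on the same array. The class II genes other than Ciita are highest in experiment 3, Csf1r and Adgre1 are highest in experiment 2 in every group, and Ciita and Ccr2 stay near the dotted lines.

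Csf1r and Adgre1 took another order of the experiments than the class II genes. Csf1r had log2 signals of 8.44, 9.40 and 7.78 in experiments 1, 2 and 3 in Card9-/- IC cells, of 8.47, 10.18 and 7.98 in Card9-/- control cells, of 9.50, 10.26 and 7.97 in wild-type IC cells and of 8.80, 10.64 and 8.65 in wild-type control cells. As deposited, experiment 2 was highest and experiment 3 lowest in every group. After subtraction of each array's median experiment 2 was still highest in every group. In wild-type control cells experiment 1 was then lowest, at 3.08 against 3.38 in experiment 3. Adgre1 had 8.50, 10.40 and 8.37 in Card9-/- IC cells, 8.54, 10.96 and 8.76 in Card9-/- control cells, 10.50, 11.33 and 8.20 in wild-type IC cells and 8.63, 11.22 and 8.67 in wild-type control cells. The wild-type IC array of experiment 1 stood apart from the 3 others of that experiment for this gene. Both genes were above background on all 12 arrays.

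The chemokine receptors were low. Among all clusters of an array, Cx3cr1 lay between percentiles 53.2 and 63.9. Cx3cr1 lay between 5.89 and 6.44 and passed the background on all 12 arrays, with group means of 6.19 ± 0.21 in Card9-/- IC cells, 6.06 ± 0.15 in Card9-/- control cells, 6.20 ± 0.26 in wild-type IC cells and 6.06 ± 0.15 in wild-type control cells (SD, n = 3 each). Ccr2 lay between 4.11 and 5.88 and passed it on 5 of 12 arrays, 4 of them in experiment 1. Its signals were 5.75, 5.28 and 4.87 in Card9-/- IC cells, 5.72, 4.98 and 4.49 in Card9-/- control cells, 5.65, 5.10 and 4.11 in wild-type IC cells and 5.88, 5.01 and 4.14 in wild-type control cells. As deposited, Ccr2 was highest in experiment 1 and lowest in experiment 3 in every group. After subtraction of each array's median it was lowest in experiment 2 in Card9-/- cells on both surfaces. It was then −0.63 in experiment 2 and −0.47 in experiment 3 on IC, and −0.95 and −0.88 on the control surface.

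The experiment accounted for 89.3% of the sum of squares of H2-Aa over the 12 arrays, 86.3% of that of H2-Ab1, 89.3% of that of H2-Eb1 and 74.7% of that of Cd74. This share was 96.0% for Ciita, 81.0% for Csf1r, 79.1% for Adgre1, 64.0% for Cx3cr1 and 88.9% for Ccr2, and its median over all clusters was 82.4%. After subtraction of each array's median it was 60.0% to 93.2% for the 9 genes and 67.0% for the median of all clusters. The reason for the differences between experiments was not tested.

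On the IC surface, none of the 9 genes differed between Card9-/- and wild-type cells beyond the test's threshold (0 of 9 called, against 0.163% of all clusters, limma with the experiment as a block and Benjamini-Hochberg adjustment). At an unadjusted p under 0.05 there were 3 of 9, Csf1r, Adgre1 and Ccr2, against 9.13% of all clusters. Without experiment 1, 2 or 3 there were 4, 0 and 2 of 9, where 1593, 1863 and 3722 of 28848 clusters were. A factorial test without moderation called 0 of 9, with 1 of 9 at an unadjusted p under 0.05, against 2400 of 28848 clusters. It called 0 of 28848 clusters in every comparison, so that its 0 of 9 tells nothing about these genes. For Csf1r the log2 difference was −0.70 (standard error 0.22, n = 3 experiments, limma adjusted p = 0.329), and its differences in experiments 1, 2 and 3 were −1.06, −0.86 and −0.19. It was −0.52 without experiment 1 and −0.96 without experiment 3. For Adgre1 it was −0.92 (standard error 0.37, limma adjusted p = 0.491), with −2.00, −0.94 and 0.17 in the experiments. Here the result rested on experiment 1, without which the log2 difference was −0.38, and it was −1.47 without experiment 3. For Ccr2, which was above background on few arrays, it was 0.34 (standard error 0.15, limma adjusted p = 0.526), above 0 in 3 of 3 experiments, as 13.5% of all clusters were, with 0.09, 0.18 and 0.75, and 0.14 without experiment 3. Cx3cr1 had a log2 difference of −0.0040 with a 95% interval of −0.25 to 0.24.

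On the control surface, 0 of 9 genes passed the test, against 0.0381% of all clusters (limma). In limma 0 of 9 had an unadjusted p under 0.05, against 4.64% of all clusters. In the factorial test without moderation 0 of 9 had one as well, against 1451 of 28848 clusters. The log2 difference of Csf1r was −0.49 (standard error 0.22, limma adjusted p = 0.952), with −0.33, −0.46 and −0.67 in the experiments. Csf1r was thus lower in Card9-/- cells in 6 of 6 pairs of arrays of the same surface and experiment, which 4.28% of all clusters were as well. Averaged over both surfaces, a comparison added after the values had been seen, the difference of Csf1r was −0.60 (standard error 0.16, limma adjusted p = 0.171). In this comparison 0 of 9 genes passed, against 0.523% of all clusters (limma). At an unadjusted p under 0.05 there was 1 of 9 in limma (10.1% of all clusters) and 1 in the factorial test (2617 of 28848 clusters). Without experiment 1, 2 or 3 limma had 4, 1 and 2 of 9, where 1856, 1831 and 4074 of 28848 clusters were. Adgre1 differed by −0.09 on the control surface (95% interval −0.91 to 0.73). The difference between the genotype differences of Adgre1 on both surfaces was −0.84 with an interval of −2.00 to 0.33 (limma adjusted p = 0.999).

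The genotype differences of the class II genes had no common direction over the 3 experiments. In experiment 1 the log2 difference of H2-Aa, Card9-/- minus wild type, was 0.46 on IC and 0.78 on the control surface, in experiment 2 it was −0.91 and −0.89 on these surfaces, and in experiment 3 it was −0.35 and 0.02. H2-Ab1 followed with 0.68 and 0.71 in experiment 1, −0.86 and −0.72 in experiment 2 and −0.11 and −0.03 in experiment 3, IC before control. The means over the experiments were therefore small against their errors. For H2-Aa they were −0.26 on IC (95% interval −0.97 to 0.44) and −0.03 on the control surface (−0.73 to 0.68). For Cd74 they were −0.14 on IC and −0.14 on the control surface (−0.77 to 0.48 for each). H2-Eb1 differed by 0.02 on IC (−0.46 to 0.50) and Ciita by −0.04 (−0.25 to 0.16). The median over the 5 class II genes was −0.10 on IC and −0.01 on the control surface, where the median of all clusters was −0.01 and 0.03.

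**Figure D2:**
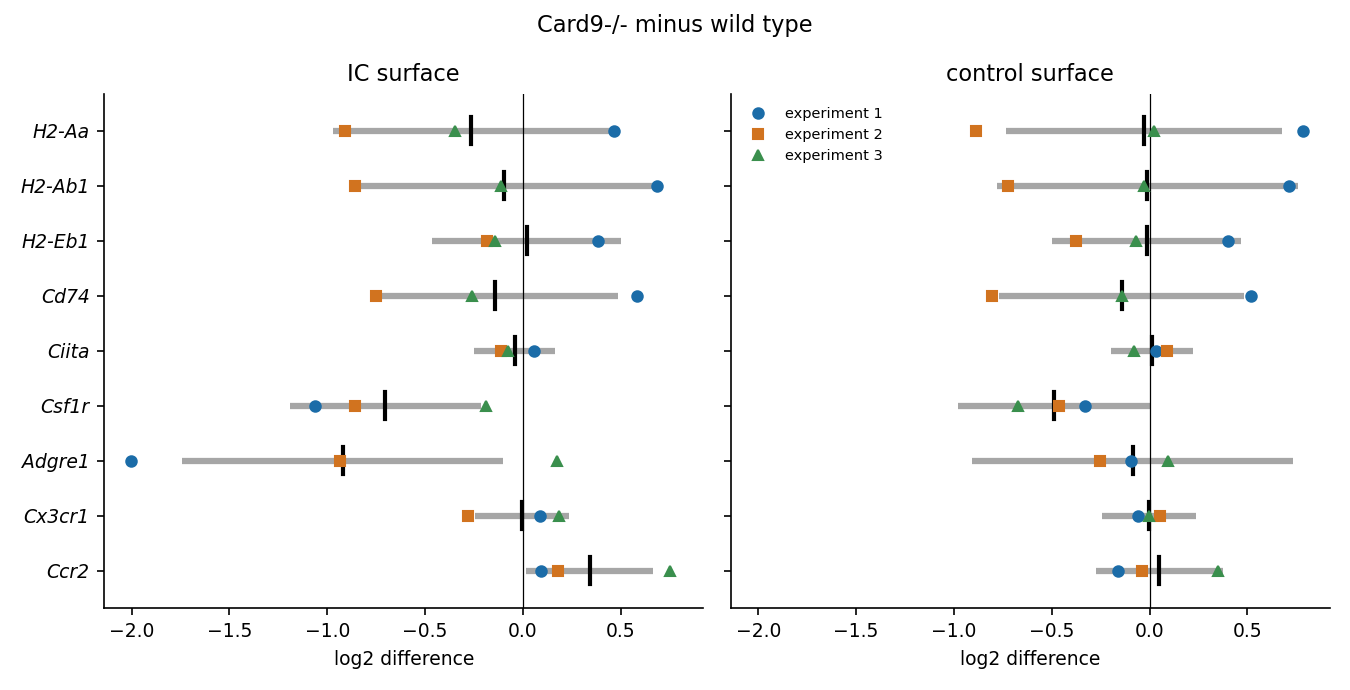
Log2 difference (horizontal axis), Card9-/- minus wild type, of each gene on IC (left) and on the control surface (right), with 1 symbol per experiment, a black bar for the mean of the 3 experiments and a grey band for its 95% interval from limma. For the class II genes other than Ciita experiment 1 lies right of 0 and experiment 2 left of 0 on both surfaces, while all 6 symbols of Csf1r lie left of 0.

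IC against the control surface left the 9 genes without a call in either genotype. In Card9-/- cells 0 of 9 passed (0% of all clusters did, limma) and 0 of 9 had an unadjusted p under 0.05, against 3.01% of all clusters. In wild-type cells 0 of 9 passed (0% of all clusters, limma) and 0 of 9 had an unadjusted p under 0.05, against 9.6% of all clusters. The factorial test, which called no cluster at all, gave 0 and 0 of the 9 genes in both genotypes. At an unadjusted p under 0.05 it had 854 of 28848 clusters in Card9-/- cells and 2421 in wild-type cells. In limma without experiment 1 still 0 of 9 passed. The genes at an unadjusted p under 0.05 were then 3 of 9 in Card9-/- cells, where 628 of 28848 clusters were, and 4 of 9 in wild-type cells, where 1922 were. H2-Aa had a log2 difference of 0.29 in Card9-/- cells (95% interval −0.42 to 0.99) and of 0.52 in wild-type cells (−0.18 to 1.23). By experiment these were −0.32, 0.65 and 0.53 in Card9-/- cells and 0.00, 0.67 and 0.90 in wild-type cells. H2-Ab1 had −0.19, 0.12 and 1.07 in Card9-/- cells and −0.16, 0.25 and 1.15 in wild-type cells. Both class II chains thus had their highest signal on IC in experiment 3, in which IC arrays were above control arrays in both genotypes. The medians of the 5 class II genes were −0.16, 0.22 and 0.73 in experiments 1, 2 and 3 in Card9-/- cells and −0.11, 0.25 and 0.85 in wild-type cells. For Cd74 the difference was 0.38 in Card9-/- cells and 0.38 in wild-type cells, with a standard error of 0.29 in each. By experiment it was −0.05, 0.46 and 0.73 in Card9-/- cells and −0.11, 0.41 and 0.85 in wild-type cells, so that it lay between 0.21 and 0.60 in Card9-/- cells and between 0.15 and 0.63 in wild-type cells when 1 experiment was left out. For H2-Eb1 the difference was 0.26 in Card9-/- cells and 0.23 in wild-type cells, with a standard error of 0.22.

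Csf1r was lower on IC in 3 of 3 experiments in Card9-/- cells, with −0.03, −0.78 and −0.20, which 14.7% of all clusters were too, and its log2 difference was −0.34 (95% interval −0.83 to 0.15). In wild-type cells its differences were 0.70, −0.39 and −0.68, and their mean was −0.12 (−0.61 to 0.37). Adgre1 had −0.03, −0.57 and −0.39 in Card9-/- cells and 1.87, 0.11 and −0.47 in wild-type cells, where the experiments disagreed in sign. Without experiment 1 the wild-type mean of Adgre1 was −0.18, against 0.50 with it. In the test of the difference between the IC effects of the genotypes 0 of 9 genes passed (0% of all clusters, limma). In limma 0 of 9 of these differences had an unadjusted p under 0.05, against 3.68% of all clusters. In the factorial test 0 of 9 had one, against 1159 of 28848 clusters. The largest of these in size was that of Adgre1, given above. For Cd74 the IC effects differed by less than 0.01, with an interval of −0.89 to 0.89.

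**Figure D3:**
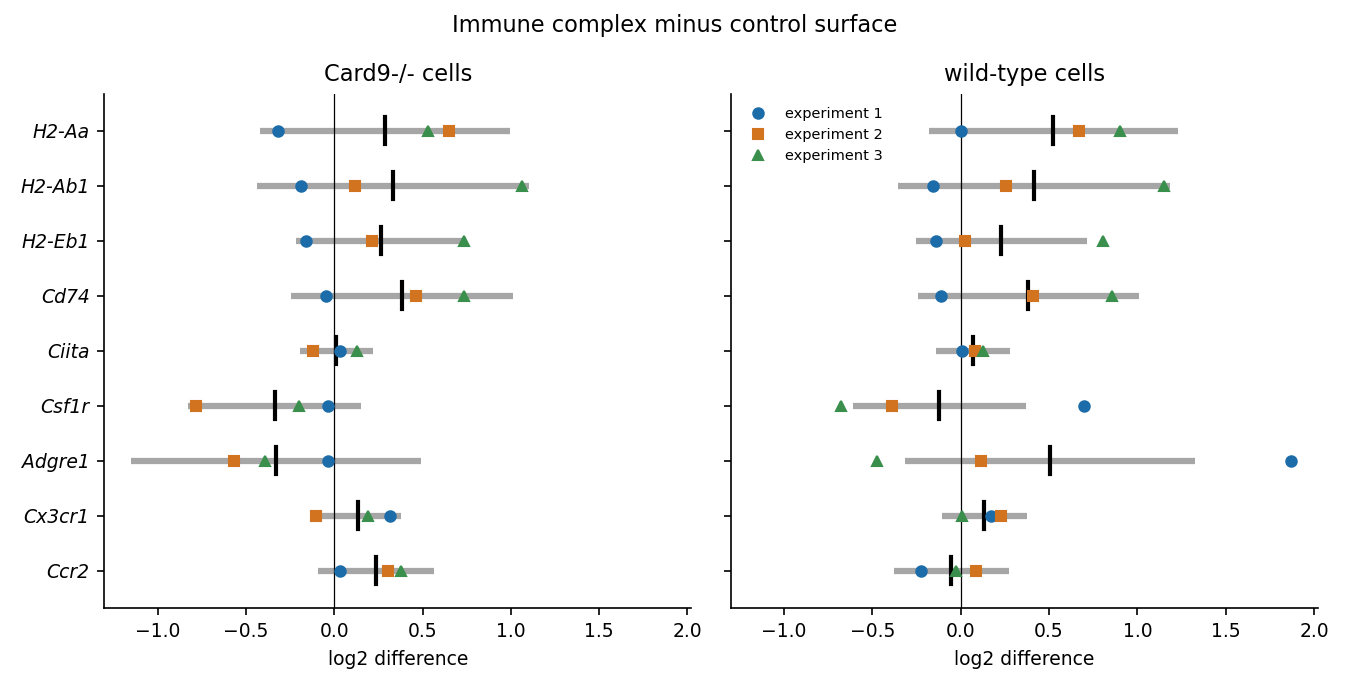
Log2 difference (horizontal axis), IC minus control surface, of each gene in Card9-/- cells (left) and in wild-type cells (right), with 1 symbol per experiment, a black bar for the mean and a grey band for its 95% interval from limma. In both genotypes the triangles of experiment 3 are right of 0 for the class II genes, and Adgre1 in wild-type cells is spread between −0.47 and 1.87.

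Within experiments H2-Aa, H2-Ab1, H2-Eb1 and Cd74 moved together, and Csf1r moved with Adgre1. After the mean of the experiment was removed, the Pearson correlation over the 12 arrays was 0.97 between H2-Aa and Cd74, 0.90 between H2-Aa and H2-Ab1, 0.83 between H2-Aa and H2-Eb1, 0.96 between H2-Ab1 and H2-Eb1 and 0.96 between H2-Ab1 and Cd74. Ciita correlated with the 4 genes it regulates at 0.44 to 0.64, close to background as it was. Csf1r correlated with Adgre1 at 0.80, with H2-Aa at −0.24 and with H2-Eb1 at −0.40. Cx3cr1 correlated with Csf1r at 0.11, with H2-Aa, H2-Ab1, H2-Eb1 and Cd74 at 0.16 to 0.32 and with Ciita at 0.41. Ccr2 correlated with Csf1r at −0.53 and with H2-Aa, H2-Ab1, H2-Eb1 and Cd74 at 0.039 to 0.13. The 12 points share 3 experiments and an unstated normalization, and the values are given as a description.

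**Figure D4:**
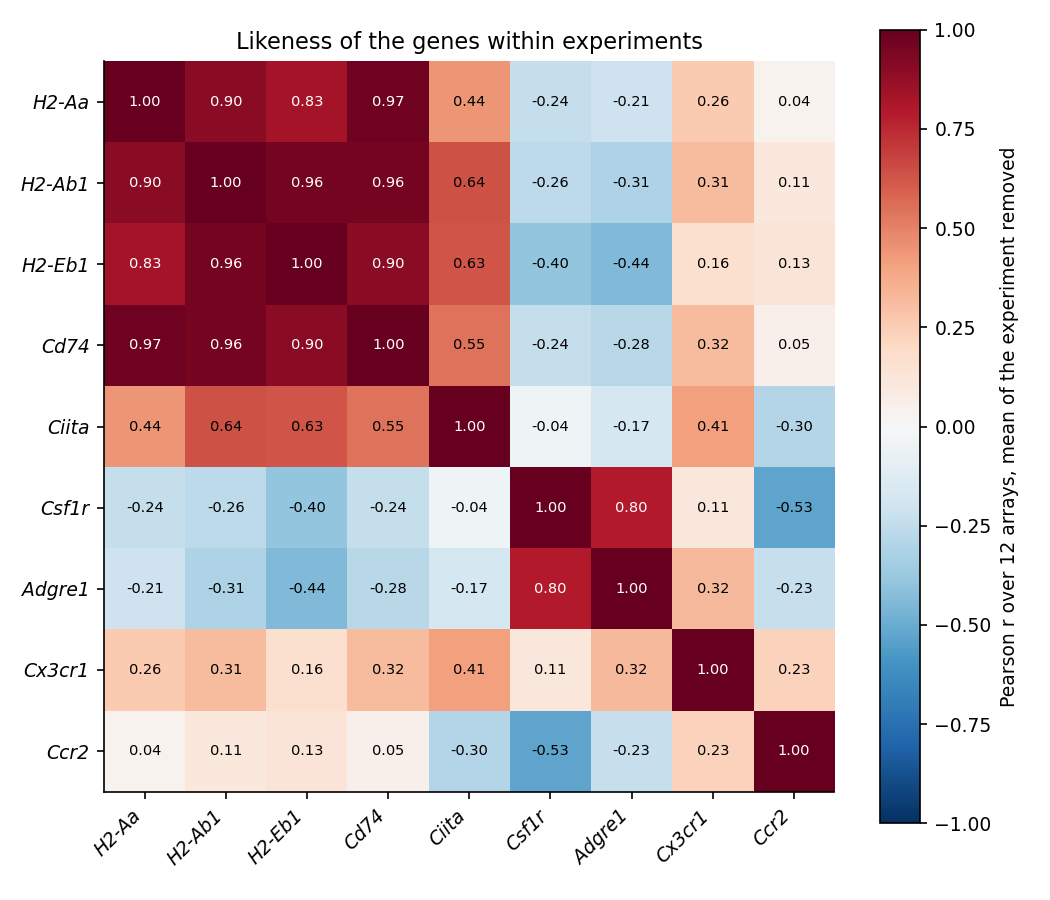
Pearson correlation (colour scale and printed value) between each pair of the 9 genes over 12 arrays, after the mean of the experiment was removed from each gene. H2-Aa, H2-Ab1, H2-Eb1 and Cd74 form a block, and Csf1r with Adgre1 a pair.

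Among 11565 clusters above background on all arrays and naming a single gene, those most like H2-Aa by this measure were Cd74 at 0.97, Zfpl1 at 0.94, Lsm1 at 0.93, H2-Ab1 at 0.90 and Smdt1 at 0.89. The signals as deposited correlated with H2-Aa at 0.97 for Cd74 and 0.98 for H2-Ab1, and at −0.06, −0.49 and 0.52 for Zfpl1, Lsm1 and Smdt1, so that both class II genes also took the order of the experiments of H2-Aa. Those most like Csf1r were Ppm1n at 0.96, Clec4a1, a C-type lectin gene, at 0.95, Skil at 0.95, Itga5, which encodes an integrin chain, at 0.94 and Rnf19b at 0.94. As deposited these 5 correlated with Csf1r at 0.93 to 0.97.

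Other genes of the class II pathway, 20 in the list, were read by 19 clusters because H2-DMb1 and H2-DMb2 share a cluster. They gave 0 calls in any of these comparisons, in which at most 0.523% of all clusters were called (limma). On IC, Card9-/- against wild type, 1 of 19 had an unadjusted p under 0.05 (limma, against 9.13% of all clusters) and the median log2 difference was −0.11. The smallest p-values belonged to Rfx5, a subunit of the RFX complex at the X box, with −0.42 (limma adjusted p = 0.516), to Marchf1, a ubiquitin ligase that removes class II molecules from the surface, with −0.20 (limma adjusted p = 0.560), and to the lysosomal proteases Lgmn with −0.51 and Ctsl with −0.21. The loading chain gene H2-DMa and the cluster shared by H2-DMb1 and H2-DMb2 were above background on all 12 arrays, at 6.41 to 8.85 and 5.96 to 8.12. H2-Oa, whose promoter stretch is printed above, was at 6.04 to 7.73 and above background on 12 of 12 arrays, and H2-Eb2 on 9 of 12 arrays. Within experiments the mean of the 19 clusters correlated with H2-Aa at 0.71 and with Csf1r at 0.15.

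Of the interferon list, which holds the IFN-γ route to Ciita, Ifng lay between 5.24 and 6.18. Averaged over both surfaces, 1 of 14 clusters passed the test (0.523% of all clusters), that shared by Gbp2 and Gbp2b. It is called Gbp2 here, after a guanylate-binding protein induced by interferon, and it fell by 1.15 in Card9-/- cells (limma adjusted p = 0.0358, and 0.165 without experiment 1, 0.268 without experiment 2 and 0.0442 without experiment 3). Gbp2 had log2 signals of 5.86, 6.76 and 5.54 in Card9-/- IC cells and of 6.24, 7.22 and 5.45 in Card9-/- control cells, against 7.10, 9.06 and 6.00 in wild-type IC cells and 6.64, 8.81 and 6.35 in wild-type control cells. Like Csf1r, it was highest in experiment 2 in every group and lower in Card9-/- cells in every pair of arrays. Within experiments the mean of the 14 clusters correlated with Csf1r at 0.84 and with H2-Aa at 0.25. That of the other monocyte and macrophage markers, described below, correlated with Csf1r at 0.53.

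Markers of other cells stood beside these genes as follows. The list of B-cell markers includes the defining Cd79a and Cd79b (named here after their values were seen). Its mean was highest in experiment 3 and lowest in experiment 2 in every group, as H2-Ab1 and H2-Eb1 were. Not every member took this order. Rag1 lay at 6.11 to 7.39 in experiment 1 and at 5.50 to 6.25 in experiment 3. Vpreb1 and Vpreb2 were lowest in experiment 3, at 4.26 to 4.54 and 5.52 to 6.04, and the background was lowest there too. Vpreb1 was above background on 0 of 12 arrays and Vpreb2 on 12. Over the list, 7 to 8 of 21 clusters were above background in experiment 2, 16 to 17 in experiment 1 and 17 in experiment 3, and the range of the summed linear signal was 1044 to 9544 in Card9-/- IC cells, 1021 to 6629 in Card9-/- control cells, 1051 to 6857 in wild-type IC cells and 1119 to 4897 in wild-type control cells. Cd79a had log2 signals of 8.23, 5.03 and 10.43 in Card9-/- IC cells and of 8.14, 4.95 and 9.08 in Card9-/- control cells, against 6.43, 4.94 and 9.999 in wild-type IC cells and 6.67, 4.79 and 8.67 in wild-type control cells. It was at background in all 4 arrays of experiment 2, in which H2-Ab1, H2-Eb1, H2-Aa and Cd74 were above it, while Cd79b was above background on all 12 arrays.

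The mean of the 21 B-cell clusters correlated with H2-Aa at 0.88 as deposited and at 0.48 within experiments, and with Csf1r at −0.94 and −0.67. That of the T and NK cell clusters correlated with H2-Aa at 0.21 as deposited and, more closely than the B-cell mean, at 0.59 within experiments. Between the genotypes, averaged over both surfaces, the median difference of the B-cell clusters was 0.92, 0.04 and 0.39 in experiments 1, 2 and 3, where that of the 5 class II genes was 0.55, −0.78 and −0.11. On IC 0 of 21 B-cell clusters passed (limma, 0.163% of all clusters), 7 had an unadjusted p under 0.05 (9.13% of all clusters) and 19 were above 0, led by Ighm with 0.85 (limma adjusted p = 0.181), Blnk with 0.67, Ebf1 with 0.90 and Pax5 with 0.54. Averaged over both surfaces 0 of 21 passed, 12 had an unadjusted p under 0.05 (10.1% of all clusters) and 21 were above 0. Their part in the values of the 9 genes was not tested.

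**Figure D5:**
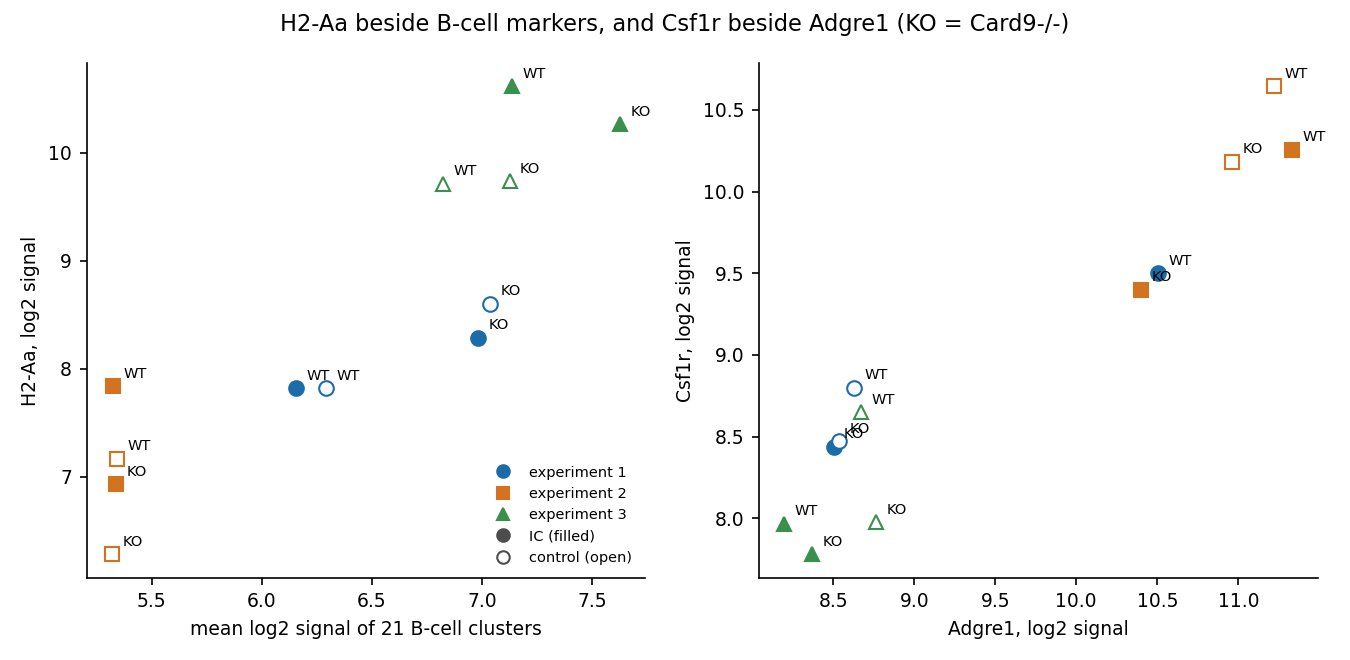
Log2 signal of H2-Aa against the mean log2 signal of 21 B-cell clusters (left) and of Csf1r against Adgre1 (right), with 1 symbol per array, KO for Card9-/- and WT for wild type, filled for IC and open for control. Within every group H2-Aa and the B-cell mean are highest in experiment 3 in the left panel, and Csf1r and Adgre1 are highest in experiment 2 in the right panel.

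Of 28 clusters of other monocyte and macrophage markers, 17 to 22 were above background on an array, and the summed linear signal ranged over 16973 to 22307 in Card9-/- IC cells, 13942 to 20412 in Card9-/- control cells, 21755 to 25621 in wild-type IC cells and 15467 to 21915 in wild-type control cells. A linear sum follows its strongest clusters and does not stand for the whole list. Among these were that of Ly6c1 and Ly6c2 at 11.76 to 12.38, Spi1 at 11.54 to 11.90 and Lgals3 at 11.28 to 11.70. Cd14 ranged from 7.83 to 11.97 and Hmox1 from 8.94 to 11.72. Macrophage genes of the list differed in how often they passed the background (named after their values were seen). Mertk, Mrc1, Cd163 and Timd4 were above background on 0 of 12 arrays, Fcgr1 on 2, the complement genes C1qc, C1qa and C1qb on 4, 5 and 8, Axl on 9, Siglec1 on 11, and Vcam1 and Hmox1 on 12. Treml4, a receptor gene of nonclassical monocytes, had log2 signals of 8.50, 9.27 and 8.74 in Card9-/- IC cells and of 8.46, 9.54 and 8.68 in Card9-/- control cells, against 9.94, 10.92 and 9.28 in wild-type IC cells and 8.48, 10.35 and 9.14 in wild-type control cells. It was highest in experiment 2, as Csf1r and Adgre1 were. Other members of the list did not share 1 order of the experiments (named after their values were seen). Cd300e was highest in experiment 2 as well, while Irf8 was lowest there, at 6.54 to 6.71. Cd68 was highest in experiment 3, at 10.35 to 10.64, as was the cluster of Ly6c1 and Ly6c2, at 12.19 to 12.38. The genotype difference of Treml4 on IC was −1.21 (limma adjusted p = 0.0718). The others with the smallest p-values on IC were Ms4a7 with −0.55 and Spic with −0.31, neither of them above background on any array, and Nr4a1 with −1.34. On IC 0 of 28 passed (limma, 0.163% of all clusters), 4 had an unadjusted p under 0.05 (9.13% of all clusters) and 20 were below 0, as 20 were on the control surface. Averaged over both surfaces 21 were below 0, 8 had an unadjusted p under 0.05 (10.1% of all clusters) and 1 of 28 passed (0.523% of all clusters), Spic, at −0.37 (limma adjusted p = 0.0499, and 0.341, 0.508 and 0.0839 without experiment 1, 2 or 3).

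The remaining lists are given by their counts and by what moved with the genotype. Most of all clusters passed the background on every array, so that these counts alone do not show that cells of a type were present. Dendritic cell markers had 11 to 14 of 16 clusters above background, with Clec9a on 0 and Flt3 on 12 of 12 arrays. Their mean correlated with H2-Aa at 0.56 within experiments and at −0.36 as deposited. T and NK cell markers had 7 to 11 of 15 clusters above background. Eosinophil, basophil and mast cell markers had 11 to 14 of 16, with the eosinophil granule genes Prg2 at 10.03 to 12.18 and Epx at 9.33 to 11.60 on all arrays, and their mean correlated within experiments with Adgre1 at 0.04 and with Ccr2 at 0.77. Averaged over both surfaces 0 of these 16 clusters passed (limma), 14 were above 0 in Card9-/- against wild-type cells and 7 had an unadjusted p under 0.05 (10.1% of all clusters). On IC their median genotype difference was −0.08, 0.13 and 0.71 in experiments 1, 2 and 3, where that of Ccr2 was 0.09, 0.18 and 0.75. Erythroid markers had 8 to 10 of 11, and the cluster of the globin genes Hba-a1 and Hba-a2 lay between 8.41 and 12.43. In experiment 1 their summed linear signal was 1127 in Card9-/- IC cells and 1158 in Card9-/- control cells, against 8514 in wild-type IC cells and 11998 in wild-type control cells. Adgre1 had log2 signals of 8.50, 8.54, 10.50 and 8.63 in the same arrays, in the same order. The mean of the 19 neutrophil clusters correlated with H2-Aa at −0.81 and with Csf1r at 0.08 within experiments. The part of these cells in the 9 genes was not tested.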

How the data were processed

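RNA of 12 neutrophil preparations (150 ng each) was labelled with biotin and hybridized to Affymetrix mouse gene arrays. For each transcript cluster the authors deposited a log2 signal. The probe summarization and normalization were not given in the sources used here. Gene symbols came from the platform annotation. Of 35556 rows, 6708 outside the annotated identifiers were left out, and 28848 clusters were tested. One model of all 4 groups, with a fixed block for the experiment, was fitted with lmFit and eBayes of limma 3.58.1 under R 4.3.3, with 6 residual and 5.42 prior degrees of freedom. p values are two-sided, adjusted by Benjamini-Hochberg over all clusters within a comparison, threshold 0.05. The labels give the experiment number in their time field: the deviations of arrays from their group means correlated at 0.67 to 0.87 within an experiment and at −0.73 to 0.35 between experiments. The labels do not say whether the experiments used separate animals. With the experiment as a block, p values measure how the group differences varied between these experiments, pooled over the 4 groups. The differences in level between experiments are not part of that spread. The procedure was tested on simulated data. The members, the gene lists and the tests were chosen with earlier results of these data known. Of other lists, the 4 genes with the smallest p in the comparison were named, and for H2-Aa and Csf1r the 5 most alike. The alternatives were other blocks, normalizations, filters and variance models, and leaving out each experiment. Python 3.11.15, numpy 2.4.6, pandas 2.3.3 and matplotlib 3.10.9 were used.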

Additional observations from a re-analysis of the deposited data

Results flagged for a closer look

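For 6 of the 9 genes the difference between Card9-/- and wild-type cells had one sign on both surfaces in an experiment and the other sign on both surfaces in another experiment, as 31.3% of all clusters did. The values below are log2 differences, Card9-/- minus wild type, averaged over both surfaces, and the differences between experiments were not tested. H2-Aa had 0.62 in experiment 1 and −0.90 in experiment 2. H2-Ab1 had 0.70, −0.79 and −0.071 in experiments 1, 2 and 3. H2-Eb1 had 0.39, −0.28 and −0.11, and Cd74 had 0.55, −0.78 and −0.20 in the same order. Ciita, near background, had 0.044 in experiment 1 and −0.077 in experiment 3. Adgre1 had −1.05 in experiment 1, −0.59 in experiment 2 and 0.13 in experiment 3.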

How the results depend on the processing

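None of the 9 genes passed in any comparison under any alternative run, with a lowest adjusted p of 0.130 for any of them. Over all clusters the alternatives called 0 to 176 for Card9-/- against wild type on IC (47 in the limma fit of the report), 0 to 12 on the control surface (11), 0 to 205 over both surfaces (151) and 0 to 51 for IC in wild-type cells (0). Without the replicate block of the experiment, 0 of 9 genes passed in each comparison, where at most 3 of 28848 clusters did. Among clusters above the median signal alone, 7 of the 9 genes were tested and 0 passed. Each gene has a single cluster, so that averaging the clusters of a gene changed nothing. With quantile normalization the sign turned for Cd74 (−0.0090, the difference of the IC effects), Ciita (0.0090, the difference of the IC effects), H2-Eb1 (0.018, Card9-/- against wild type on the control surface), Ciita (−0.037, Card9-/- against wild type on the control surface), Ccr2 (−0.022, Card9-/- against wild type on the control surface). With median centring the sign turned for Ciita (0.020, the difference of the IC effects), Ciita (−0.041, Card9-/- against wild type on the control surface), Ccr2 (−0.0041, Card9-/- against wild type on the control surface), Cx3cr1 (0.018, Card9-/- against wild type on IC), H2-Eb1 (−0.014, Card9-/- against wild type over both surfaces). Leaving out an experiment turned the sign of values near 0 or of values that 1 experiment carried. For IC against control in Card9-/- cells the ranges were −0.035 to 0.59 in H2-Ab1, −0.045 to 0.080 in Ciita. For IC against control in wild-type cells the ranges were −0.059 to 0.42 in H2-Eb1, −0.53 to 0.16 in Csf1r, −0.18 to 0.99 in Adgre1, −0.12 to 0.032 in Ccr2. For the difference of the IC effects the ranges were −0.046 to 0.087 in H2-Eb1, −0.033 to 0.061 in Cd74, −0.097 to 0.015 in Ciita, −0.56 to 0.044 in Csf1r, −0.094 to 0.17 in Cx3cr1. For Card9-/- against wild type on the control surface the ranges were −0.43 to 0.40 in H2-Aa, −0.37 to 0.34 in H2-Ab1, −0.22 to 0.17 in H2-Eb1, −0.47 to 0.19 in Cd74, −0.024 to 0.059 in Ciita, −0.032 to 0.023 in Cx3cr1, −0.10 to 0.16 in Ccr2. For Card9-/- against wild type on IC the ranges were −0.63 to 0.058 in H2-Aa, −0.49 to 0.28 in H2-Ab1, −0.16 to 0.12 in H2-Eb1, −0.51 to 0.16 in Cd74, −0.097 to 0.13 in Cx3cr1. For Card9-/- against wild type over both surfaces the ranges were −0.53 to 0.23 in H2-Aa, −0.43 to 0.31 in H2-Ab1, −0.19 to 0.14 in H2-Eb1, −0.49 to 0.17 in Cd74, −0.045 to 0.016 in Ciita, −0.050 to 0.051 in Cx3cr1. The causes were not tested. With 3 arrays per group, and probes near background for Ciita and Ccr2, small differences are not resolved. Changes by scaling of the median of all clusters stayed below 0.1.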
